A study of Mus musculus with 6 samples.

Results

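Toll-like receptors and their adaptors were followed in Lewis lung carcinoma (LLC) cells, an established mouse lung cancer line. The genes were 8 receptors (Tlr1, Tlr2, Tlr3, Tlr4, Tlr5, Tlr6, Tlr7 and Tlr9) and the adaptors Myd88 and Ticam1, taken by symbol, and all 10 were among the 18182 genes of the deposited files. C57BL/6 mice of wild type genotype received LLC cells with red fluorescent protein (RFP) under the skin, either alone (LLC alone) or together with bone marrow-derived mesenchymal stem cells (LLC with BMSCs). RFP-positive cells were sorted from the primary tumours of both groups and their RNA was sequenced, in 3 libraries per group. Mice of the allograft experiments were female and 6 weeks old, which the methods state beside LLC cells with luciferase and not separately for those with RFP. Whether a library came from a single mouse is not given in the sources used here, so the p-values measure the spread between these libraries, which may be technical. Each library held 33476347 to 46189113 estimated counts. LLC alone replicate 3 stood apart from the other libraries of its group, and LLC alone replicates 1 and 2, and LLC with BMSCs replicates 2 and 3, were closer to each other than any other replicate pair (median squared difference over that expected from counting, 1.96 and 1.69 against 5.04 to 14.2).

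Toll-like receptors are membrane proteins that recognise microbial products and some molecules released from damaged tissue, and are best known from macrophages and dendritic cells, although epithelial and tumour cells also carry some of them. Tlr1, Tlr2, Tlr4, Tlr5 and Tlr6 act mainly at the cell surface on lipids and proteins of bacteria, and Tlr3, Tlr7 and Tlr9 act in endosomes on nucleic acids. Ligand binding brings together the receptors' inner TIR domains, which recruit Myd88 or, for Tlr3 and internalised Tlr4, Ticam1 (also called TRIF). These adaptors lead through the IRAK and TRAF proteins to NF-kB and interferon regulatory factors, which switch on cytokine genes.

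Compared with LLC alone, Tlr2 and Tlr3 were higher in LLC with BMSCs, while Tlr4 and both adaptors, Myd88 and Ticam1, were lower. Of the 10 genes, 7 had enough counts for edgeR's quasi-likelihood test, of which 2 were called higher, 3 lower and 2 neither at an adjusted p under 0.05. Over all 13353 genes tested, 62.9% were called, 31.5% higher and 31.3% lower, so that the share called among the receptors and adaptors was near that of genes at large. The median log2 fold change of the 7 genes was -0.23, and that of all tested genes was 0.01. The libraries of both groups were apart in CPM for 6 of the 7, against 71.3% of all tested genes. CPM are counts scaled to the library total as adjusted by edgeR's TMM factors. Levels are given as FPKM, fragments per length of transcript and per library total, which allows genes of different length to be compared. Fold changes and their standard errors (SE) come from the counts.

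**Figure D1:**
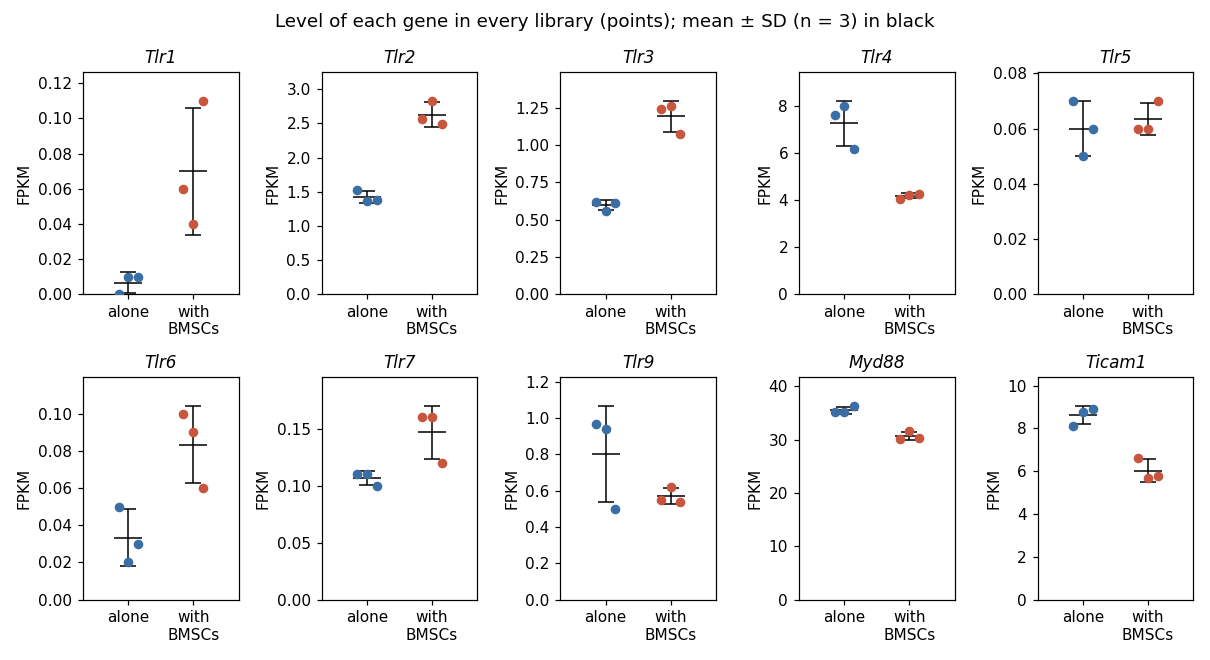
FPKM (vertical axes, each starting at 0 with its own scale) of the 10 genes in every library of LLC alone and LLC with BMSCs. Points are libraries in the order of replicates 1 to 3 and black marks are the mean ± SD (n = 3). Tlr2 and Tlr3 are higher and Tlr4, Myd88 and Ticam1 lower in every library of LLC with BMSCs, while Tlr9 overlaps because of 1 low library of LLC alone at 0.50 FPKM.

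The letters before the start sites of Tlr2, Tlr3 and Myd88 are shown, the called genes whose windows held a match to a motif named below. Ticam1, also called lower, held no match, so no link between motif and direction is drawn. The letters shown are RefSeq sequences on GRCm38.p6, read from a table of promoters in which 8 of the 10 genes were found by symbol and which does not hold Tlr4 and Tlr7. Each is the run of 250 bases that ends just before the start site, read along the gene, and all 3 genes lie on the minus strand. Tlr2 lies at chr3:83841609-83841858, Tlr3 at chr8:45410381-45410630 and Myd88 at chr9:119340019-119340268. Capitals mark matches, on either strand, to the NF-kB consensus in Tlr2 and Tlr3 and to the interferon-stimulated response element GAAANNGAAA in Myd88.
Tlr2: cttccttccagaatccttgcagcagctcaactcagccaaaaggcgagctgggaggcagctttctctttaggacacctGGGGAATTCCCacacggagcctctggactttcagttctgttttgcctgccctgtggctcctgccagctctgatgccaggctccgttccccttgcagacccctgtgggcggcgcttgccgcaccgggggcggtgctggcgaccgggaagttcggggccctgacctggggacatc
Tlr3: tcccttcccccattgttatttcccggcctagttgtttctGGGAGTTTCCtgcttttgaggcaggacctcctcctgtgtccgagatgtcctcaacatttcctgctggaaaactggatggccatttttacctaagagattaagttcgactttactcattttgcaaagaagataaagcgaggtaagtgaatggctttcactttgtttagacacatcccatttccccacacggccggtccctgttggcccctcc
Myd88: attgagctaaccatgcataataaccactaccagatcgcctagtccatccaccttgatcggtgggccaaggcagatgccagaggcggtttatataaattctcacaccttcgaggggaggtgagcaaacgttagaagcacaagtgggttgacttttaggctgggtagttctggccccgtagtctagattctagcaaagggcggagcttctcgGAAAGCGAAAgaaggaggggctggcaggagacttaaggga

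The capitals in Tlr2 are a pair of overlapping matches, of which the first, GGGGAATTCC, begins 173 bases before the start site. In Tlr3 the match GGGAGTTTCC begins 211 bases before it. The NF-kB consensus was found in the same window of 7.25% of all 32851 promoters of the table. The Myd88 match GAAAGCGAAA begins 40 bases before the start site, and the interferon-stimulated response element was found in 2.98% of promoters. It was also present at 1 of the Tlr6 start sites, as a pair of overlapping matches beginning 116 and 110 bases before it. The windows of Tlr1, Tlr5, Tlr9 and Ticam1 held no match to either. These matches describe letters and were not tested for binding.

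Tlr4, the receptor for bacterial lipopolysaccharide, was the most abundant receptor in both groups and the one that fell most among those tested. Its level was 7.61, 7.96 and 6.16 FPKM in LLC alone replicates 1 to 3. In LLC with BMSCs it was 4.06, 4.22 and 4.26 FPKM. Every library with BMSCs was thus below every library of LLC alone, and the spread was wider in LLC alone, where replicate 3 was lowest. On average the level was 7.24 ± 0.954 and 4.18 ± 0.106 FPKM (SD, n = 3 per group), and the log2 fold change was -0.81 (SE 0.093, adjusted p = 0.000189 by the quasi-likelihood test of edgeR). In counts, Tlr4 held 2105 to 2782 estimated counts per library in LLC alone and 1433 to 1478 in LLC with BMSCs.

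Tlr2, which recognises bacterial lipoproteins as a partner of Tlr1 or Tlr6, went the other way. It stood at 1.53, 1.37 and 1.38 FPKM in LLC alone and at 2.57, 2.83 and 2.49 FPKM in LLC with BMSCs, so that the groups did not overlap. On average the level was 1.43 ± 0.0896 and 2.63 ± 0.178 FPKM (SD, n = 3 per group), with a fitted log2 fold change of 0.83 (SE 0.098, adjusted p = 0.000224 from the same edgeR test). The estimated counts behind these levels were 134 to 207 in LLC alone and 309 to 354 in LLC with BMSCs.

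The partners of Tlr2 and the flagellin receptor Tlr5 were near the limit of detection. Tlr1 had 0, 1 and 1 estimated counts in LLC alone and 8.38, 5 and 13 in LLC with BMSCs. All 3 LLC alone libraries were at or under 3 counts, taken as a floor per library that covers counting error only, and against that floor Tlr1 was at least 2.65-fold higher in LLC with BMSCs in normalized counts. Tlr6 had 6, 2 and 4 counts in LLC alone and 11.62, 10 and 7 in LLC with BMSCs, and the groups did not overlap. Tlr5 had 10, 5 and 9 counts against 9, 8 and 9, with overlapping groups and FPKM means of 0.060 ± 0.010 and 0.063 ± 0.0058 (SD, n = 3 per group). None of these 3 genes passed edgeR's filter on low counts. Without that filter, the adjusted p from edgeR was 0.0068 for Tlr1, 0.0556 for Tlr6 and 0.971 for Tlr5. Tlr6 entered the test and was called higher without LLC alone replicate 1 (adjusted p = 0.0352 from edgeR) or without LLC with BMSCs replicate 3 (adjusted p = 0.0340 from edgeR). The library left out was the highest of LLC alone in the first case and the lowest with BMSCs in the second. Tlr6 passed the filter only through LLC with BMSCs, where it was higher, so these calls are not support for a difference. In the GENCODE M21 transcripts, Tlr1 and Tlr6 share 259 stretches of 100 bases, out of 3282 in Tlr1, and both had fractional counts in LLC with BMSCs replicate 1. Estimated counts divide a read that matches several genes, so the division between Tlr1 and Tlr6 is uncertain.

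Among the receptors of nucleic acids, Tlr3 rose, and Tlr7 and Tlr9 did not pass the test. Tlr3, which binds double-stranded RNA and signals through Ticam1 alone, had 0.62, 0.56 and 0.61 FPKM in LLC alone and 1.24, 1.26 and 1.07 FPKM in LLC with BMSCs. The lowest library with BMSCs lay above the highest of LLC alone. On average the level was 0.597 ± 0.0321 and 1.19 ± 0.104 FPKM (SD, n = 3 per group), and the log2 fold change was 0.96 (SE 0.11, adjusted p = 0.000195 from the edgeR test). This rests on 80 to 123 estimated counts per library in LLC alone and 200 to 236 in LLC with BMSCs. In GENCODE M21, 381 of the 5207 exon bases of Tlr3 overlap the opposite-strand gene Gm45542, whose reads cannot be told apart if strand was not used in counting.

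Tlr7, a receptor of single-stranded RNA, was detected at a trace level in all libraries, with 0.11, 0.11 and 0.10 FPKM in LLC alone and 0.16, 0.16 and 0.12 FPKM in LLC with BMSCs. The groups did not overlap, but with 14 to 27 estimated counts per library the log2 fold change of 0.43 did not pass the threshold (95% interval -0.09 to 0.94, adjusted p = 0.139 from edgeR). Tlr9, a receptor of unmethylated CpG DNA, had 0.97, 0.94 and 0.50 FPKM in LLC alone and 0.55, 0.62 and 0.54 FPKM in LLC with BMSCs. LLC alone replicate 3 fell below all 3 libraries with BMSCs while the other LLC alone libraries lay above them. The log2 fold change of Tlr9 was -0.51 (95% interval -1.08 to 0.06, adjusted p = 0.102 from edgeR). Without LLC alone replicate 3 it was -0.76, with an adjusted p of 0.000912 from edgeR.

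**Figure D2:**
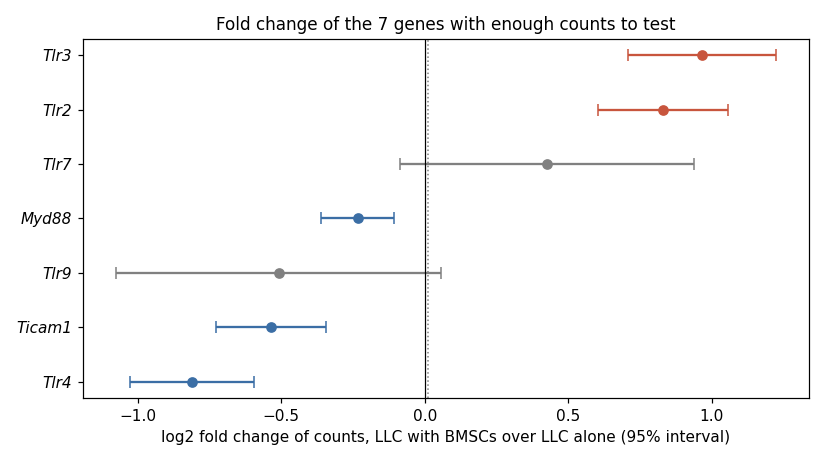
Log2 fold change of counts (horizontal axis, LLC with BMSCs over LLC alone) of the 7 tested genes with its 95% interval from edgeR. Red and blue mark genes called higher and lower and grey those not called, and the dotted line is the median of all tested genes. The intervals of Tlr7 and Tlr9 cross 0.

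Both adaptors were expressed above all receptors and were lower in LLC with BMSCs. Myd88, used by all of these receptors except Tlr3 and by the interleukin-1 receptor family, had 35.07, 35.07 and 36.26 FPKM in LLC alone and 30.12, 31.51 and 30.22 FPKM in LLC with BMSCs. Its fall was the smallest of those called, with means of 35.5 ± 0.687 and 30.6 ± 0.775 FPKM (SD, n = 3 per group) and a fitted log2 fold change of -0.23 (SE 0.055, adjusted p = 0.0068 from edgeR). It did not pass the threshold when the close replicate pairs were summed (log2 fold change -0.25, adjusted p = 0.0822 from edgeR), and was -0.12 (adjusted p = 0.0281 from edgeR) with the trend of the libraries over gene length removed. In GENCODE M21, 290 of the 2576 exon bases of Myd88 overlap exons of Acaa1a on the opposite strand, and whether reads were counted by strand is not given in the sources used here. Acaa1a itself rose from 15.4 ± 0.701 to 25.7 ± 1.20 FPKM (SD, n = 3 per group).

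Ticam1, the adaptor of Tlr3 and of internalised Tlr4, had 8.13, 8.79 and 8.93 FPKM in LLC alone. In LLC with BMSCs it had 6.63, 5.67 and 5.79 FPKM, without overlap. On average the level was 8.62 ± 0.427 and 6.03 ± 0.523 FPKM (SD, n = 3 per group), with a log2 fold change of -0.53 (SE 0.082, adjusted p = 0.000849 from edgeR). Tlr3 and its only adaptor thus differed in opposite directions between the groups. For each of the 5 genes called, the exact permutation test on FPKM gave a two-sided p of 0.1, the smallest that 3 libraries against 3 allow. These 5 genes were also called by edgeR with each library left out in turn.

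In order of mean FPKM, LLC alone ran Myd88, Ticam1, Tlr4, Tlr2, Tlr9, Tlr3, Tlr7, Tlr5, Tlr6 and Tlr1. The libraries of neighbours in this order overlapped for Tlr9 and Tlr3, met at 0.05 FPKM for Tlr5 and Tlr6, and did not overlap for the others. In LLC with BMSCs the order was Myd88, Ticam1, Tlr4, Tlr2, Tlr3, Tlr9, Tlr7, Tlr6, Tlr1 and Tlr5, and the libraries of the last 3 overlapped. Tlr3 thus stood above Tlr9 in every library with BMSCs.

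The opposite movements narrowed the gap between Tlr4 and the next receptors. Tlr4 made up 69.4%, 72.2% and 69.6% of the summed FPKM of the 8 receptors in LLC alone, and 46.1%, 45.5% and 48.9% in LLC with BMSCs. Tlr2 went from between 12.4% and 15.6% of that sum to between 28.6% and 30.5%, and Tlr3 from between 5.08% and 6.89% to between 12.3% and 14.1%. Within a library, Tlr4 was 5.08 ± 0.680 times Tlr2 in LLC alone and 1.59 ± 0.111 times Tlr2 in LLC with BMSCs (SD, n = 3 per group, two-sided p = 0.1 by the exact permutation test, its smallest). Myd88 exceeded Tlr4 by a factor of 4.97 ± 0.803 in LLC alone and 7.33 ± 0.203 in LLC with BMSCs (SD, n = 3 per group, two-sided p = 0.1 by the exact permutation test). These factors compare FPKM, and no group of libraries overlapped with the other in either.

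**Figure D3:**
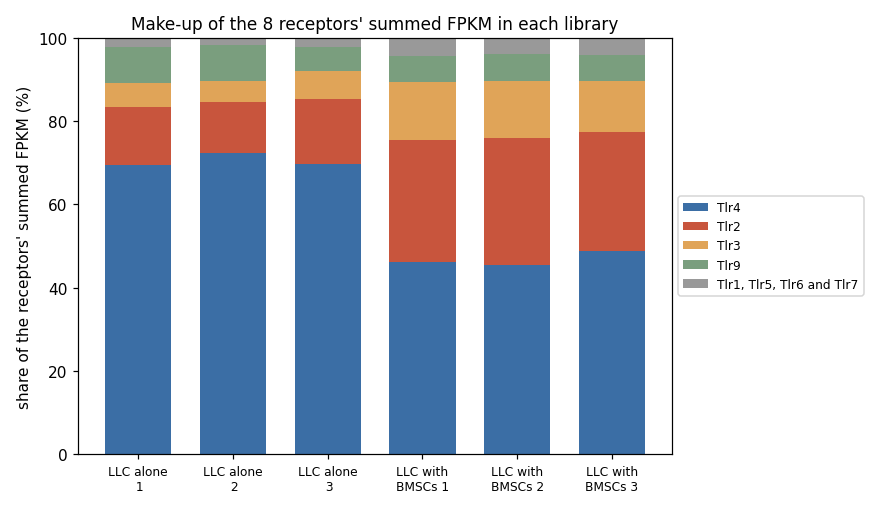
Share (%) of the summed FPKM of the 8 receptors that each receptor took in every library. Tlr4 takes 69.4% to 72.2% in LLC alone and 45.5% to 48.9% in LLC with BMSCs, with larger shares of Tlr2 and Tlr3 in the latter.

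Markers of other cells were read from the same libraries, since macrophages, neutrophils and BMSCs also carry Toll-like receptors. Of 6 leukocyte markers, 6 were called higher, and their summed level rose from between 1.41 and 1.60 CPM in LLC alone to between 18.9 and 20.1 CPM in LLC with BMSCs. Beside this and the counts below, 31.5% of all tested genes were called higher and 31.3% lower. The leukocyte markers Ptprc, Lcp1, Tyrobp and Fcer1g passed the filter on low counts only through LLC with BMSCs, so they could not have been called lower. The 9 neutrophil markers in the files rose from between 0.479 and 0.780 to between 21.2 and 23.8 CPM in sum (7 of 7 tested called higher), with Ly6g, a defining marker, at or under 4 counts in every library. Of those 7, 6 were at or under 3 counts in every LLC alone library. They passed the filter on low counts only through LLC with BMSCs, so none of them could have been called lower. The 13 macrophage and monocyte markers summed to between 10.4 and 12.4 CPM and to between 21.6 and 22.9 CPM, with 6 of 8 tested called higher and 2 lower. The macrophage gene Adgre1 had 0 counts in every LLC alone library and 60 to 79 in LLC with BMSCs, C1qa, C1qb and C1qc stayed at or under 3 counts throughout, and Cd68 and Cx3cr1 were the 2 called lower. Adgre1, Itgam, Mrc1 and Ly6c2 passed the filter only through LLC with BMSCs and could not have been called lower. Cx3cr1 passed it only through LLC alone and could not have been called higher. Dendritic cell markers summed to between 16.0 and 17.4 CPM and to 17.5 CPM, with 4 of 8 tested called higher and 2 lower. Among those called higher, H2-Aa and H2-Ab1 passed the filter only through LLC with BMSCs and could not have been called lower. Lymphocyte markers stayed at or under 0.429 CPM in sum and none could be tested. Endothelial markers summed to between 0.741 and 0.943 CPM and to between 0.995 and 1.14 CPM, and the 1 tested was not called.

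The 11 BMSC and fibroblast markers summed to between 369.7 and 433 CPM in LLC alone and to between 806 and 855 CPM in LLC with BMSCs. Of 9 tested, 9 were called higher with edgeR and 8 with DESeq2, where edgeR called 31.5% of all tested genes higher. Thy1 was at or under 2 counts in every library. Cxcl12 had 0 counts in LLC alone and 7 to 12 in LLC with BMSCs, too few to be tested. The largest part of the summed CPM was Col3a1, with means of 228 CPM in LLC alone and 546 CPM in LLC with BMSCs. The sum is thus not particular to BMSCs. Col1a1 had 2 to 4 counts in LLC alone and 477 to 586 in LLC with BMSCs. It passed the filter on low counts only through LLC with BMSCs and could not have been called lower. Of the epithelial markers, Krt8 was high, at 95.3 ± 5.98 and 110.02 ± 2.85 FPKM (SD, n = 3 per group), and Krt18 had 2 to 8 counts in LLC alone and 37 to 41 in LLC with BMSCs, both called higher (2 of 2 tested). Krt18 likewise passed the filter only through LLC with BMSCs and could not have been called lower. Epcam, Cdh1, Krt7 and Krt19 were at or under 5 counts in every library. For comparison, the summed level of the 10 receptors and adaptors was 153 to 164 CPM in LLC alone and 119.9 to 124 CPM in LLC with BMSCs. The part of other cells in the higher levels of Tlr2 and Tlr3, and in the trace counts of Tlr1 and Tlr6, was not tested. In sorted bulk RNA, fewer cells of a type and less RNA per cell cannot be told apart. The part of other cells in the lower levels of Tlr4, Myd88 and Ticam1 was likewise not tested. In these libraries the level of the leukocyte, neutrophil and BMSC markers goes with the group, so their effects cannot be told apart.

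**Figure D4:**
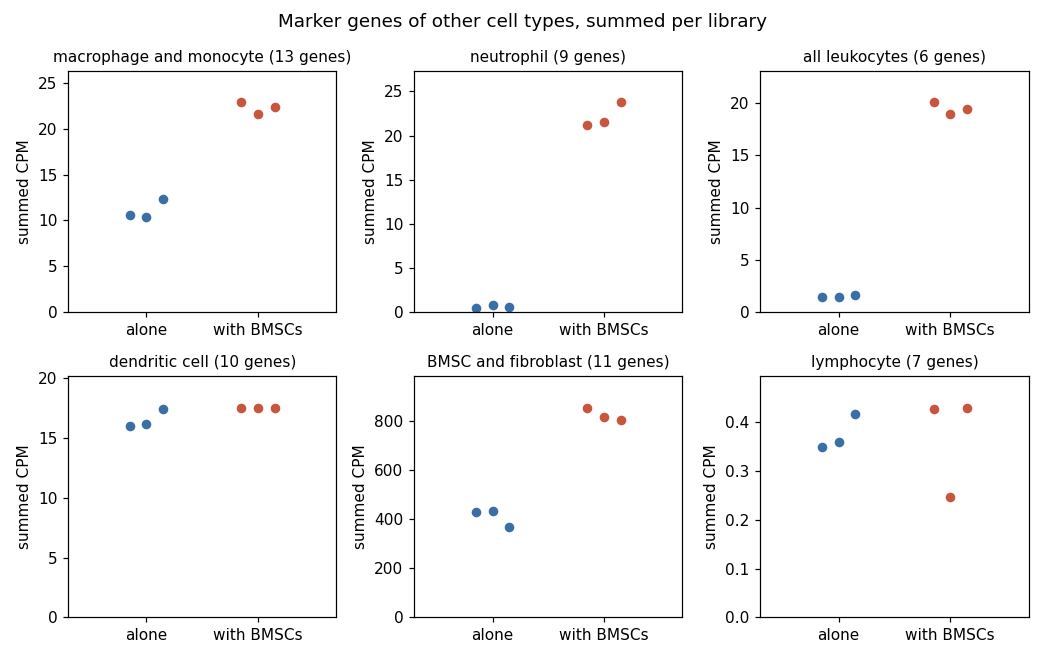
Summed CPM (vertical axes, each with its own scale from 0) of marker genes of other cell types in every library of LLC alone and LLC with BMSCs. Leukocyte, neutrophil, macrophage and BMSC markers are higher in every library with BMSCs, while dendritic cell and lymphocyte markers differ little or overlap. The BMSC and fibroblast sum includes genes that are also expressed in LLC alone.

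The rest of the pathway was read from lists of 93 genes ordered by role, of which 91 were in the files and 83 tested. Of these, 52 were called higher and 12 lower, where 31.5% and 31.3% of all tested genes were, and their median log2 fold change was 0.58. Of the 83, 6 were at or under 3 counts in every LLC alone library and could not have been called lower. Beyond those, Irak3, Csf3, Acod1, Irf5 and Dcn also passed the filter on low counts only through LLC with BMSCs, where they were higher. Their direction was thus fixed by the filter too, and their calls are not support for a rise of the pathway. Of the other receptors of the family, only Tlr13, a receptor of bacterial ribosomal RNA in mice, could be tested. It had 5, 2 and 5 estimated counts in LLC alone and 27, 23 and 22 in LLC with BMSCs (log2 fold change 2.46, SE 0.29, adjusted p = 0.000224 from edgeR). Tlr13 passed the filter on low counts only through LLC with BMSCs, where it was higher, so it could not have been called lower. Tlr8 and Tlr12 were at or under 3 counts in every library.

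Proteins that help the receptors to reach their place or bind their ligand moved in both directions. Of 13 genes, 9 were tested, 2 were called higher and 3 lower, with a median log2 fold change of -0.02. Ly96 (MD-2), the partner of Tlr4 in binding lipopolysaccharide, fell from 11.2 ± 1.60 to 6.55 ± 1.14 FPKM (SD, n = 3 per group), with a log2 fold change of -0.82 (SE 0.15, adjusted p = 0.00209 from edgeR), while that of Tlr4 was -0.81. The level of Ly96 relative to Tlr4 was 1.59 ± 0.443 in LLC alone and 1.56 ± 0.238 in LLC with BMSCs (SD of FPKM ratios, n = 3 each, exact permutation test, two-sided p = 1.0). Unc93b1, which carries the receptors of nucleic acids to endosomes, rose from 3.24 ± 0.480 to 6.77 ± 0.0819 FPKM (SD, n = 3 per group, log2 fold change 1.05).

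Tirap, which bridges Tlr2 and Tlr4 to Myd88, rose with a log2 fold change of 0.58, and Hsp90b1, a chaperone that folds most of these receptors, fell with -0.32 from the highest level of the list, 571 ± 1.21 FPKM (SD, n = 3). Cd14, which hands lipopolysaccharide to Tlr4, was 9.49 ± 0.970 and 10.09 ± 0.866 FPKM (SD, n = 3 per group) and was not called (adjusted p = 0.587 from edgeR). Cd14 is named outside the rule for the list, after its values were seen, because it completes the lipopolysaccharide receptor. Ticam2, which bridges Tlr4 to Ticam1, had 1 count in each LLC alone library and 7 or 8 in LLC with BMSCs, at least 2.24-fold higher against the floor, and is likewise named for its role.

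Downstream of the adaptors, the kinases and ubiquitin ligases were called higher for 13 of 21 tested genes and lower for 3, with a median log2 fold change of 0.30. Ikbke, a kinase that activates interferon regulatory factors, had the largest log2 fold change among the genes of the list called with at least 50 normalized counts on average, and rose from 1.21 ± 0.0971 to 9.91 ± 0.413 FPKM (SD, n = 3 per group, log2 fold change 3.00). Peli2 and Btk, with at most 2 counts in LLC alone and 10 to 17 in LLC with BMSCs, were at least 3.76-fold and 4.48-fold higher against the floor. Irak2 and Irak4, kinases of the Myd88 complex, rose with log2 fold changes of 0.99 and 0.83, and Traf3, a ubiquitin ligase on the route from Ticam1, with 0.67. Ube2v1, part of the enzyme that builds the chains activating the pathway, had the highest mean level over both groups and was not called, with 92.0 ± 4.18 and 96.2 ± 9.26 FPKM (SD, n = 3 per group).

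Of 12 negative regulators, 9 were called higher and 1 lower, with a median log2 fold change of 0.79. Tnfaip3 (A20), which removes ubiquitin from signalling proteins, rose from 2.55 ± 0.304 to 9.33 ± 0.596 FPKM (SD, n = 3 per group, log2 fold change 1.85), and its binding partner Tnip1 had a log2 fold change of 1.10. Nfkbia, which holds NF-kB in the cytoplasm, rose from 156 ± 18.5 to 345 ± 18.5 FPKM (SD, n = 3 per group, log2 fold change 1.13). Il1rl1, a receptor for interleukin-33 that itself uses Myd88, had a log2 fold change of 1.46.

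Of 12 transcription factors, 9 were called higher and 1 lower, with a median log2 fold change of 1.14. Irf7, the interferon regulatory factor that binds Myd88 downstream of Tlr7 and Tlr9, rose from 0.280 ± 0.0520 to 10.5 ± 0.421 FPKM (SD, n = 3 per group, log2 fold change 5.21), and Irf5, which also binds Myd88, had a log2 fold change of 3.14. Fos and the NF-kB subunit gene Nfkb2 had log2 fold changes of 2.15 and 1.53. Rela, the most abundant of the list averaged over both groups, rose from 42.3 ± 0.153 to 58.4 ± 5.18 FPKM (SD, n = 3 per group, log2 fold change 0.45).

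Among 19 tested target genes, 13 were called higher and 4 lower, with a median log2 fold change of 1.77. Il1b, a cytokine of activated macrophages, had at most 1 count in LLC alone and 603 to 643 counts in LLC with BMSCs, at least 189-fold higher against the floor. Acod1 and Csf3, likewise near 0 in LLC alone, reached 6.87 ± 0.0379 and 2.97 ± 0.443 FPKM with BMSCs (SD, n = 3 per group). Ccl2, the most abundant target averaged over both groups, rose from 339 ± 49.5 to 903 ± 48.3 FPKM (SD, n = 3 per group, log2 fold change 1.39). The chemokine gene Ccl20 fell from 47.0 ± 3.35 to 2.79 ± 0.206 FPKM (SD, n = 3 per group, log2 fold change -4.09, adjusted p = 1.02e-07 from edgeR). These targets also answer to other pathways, and Il1b and Acod1 are genes of activated myeloid cells. Of the markers given above, those of macrophages and dendritic cells were called in both directions. Those of neutrophils and of all leukocytes were called only higher, with the limit of the filter given there. The part of myeloid cells in the levels of Il1b and Acod1 was not tested.

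Proteins reported as ligands from the animal's own tissue were called higher for 5 of 9 tested genes and lower for 0 by edgeR, with a median log2 fold change of 1.54. DESeq2 called 6 higher, and 0 were lower with it or at an unadjusted p under 0.05 from edgeR. All of these tests used the same filter on low counts. S100a8, S100a9 and Dcn passed it only through LLC with BMSCs and could not have been called lower, so the repeats add no support. S100a8 and S100a9, which form a ligand of Tlr4 and are also neutrophil markers, had at most 2 counts in LLC alone and were at least 87.1-fold and 140.1-fold higher. The matrix proteins Dcn and Tnc had log2 fold changes of 5.87 and 4.14. Hspd1, the most abundant, was 834 ± 4.37 and 825 ± 33.5 FPKM (SD, n = 3 per group) and was not called.

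**Figure D5:**
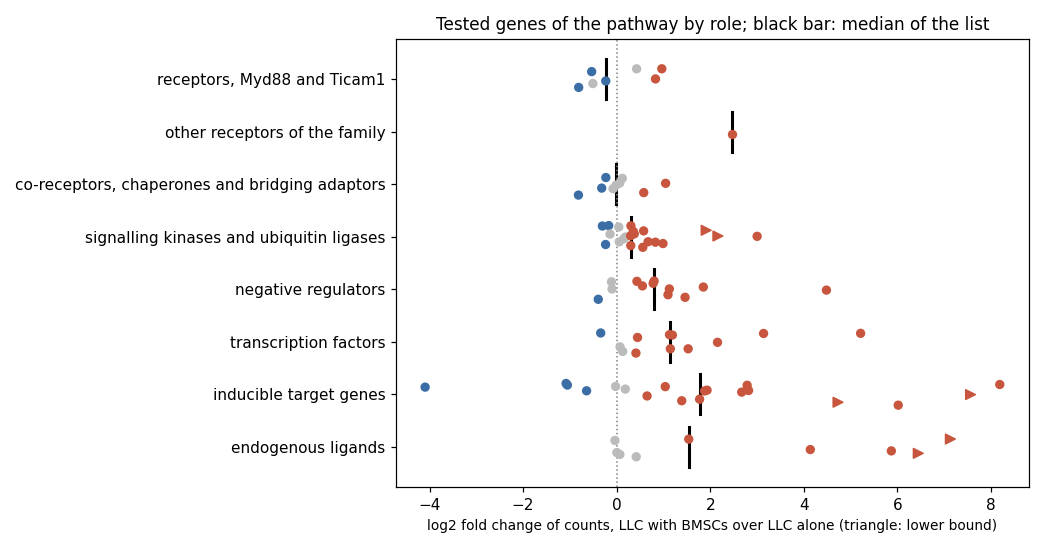
Log2 fold change (horizontal axis, LLC with BMSCs over LLC alone) of every tested gene of the pathway lists, by role. Red and blue mark genes called higher and lower, grey those not called, triangles lower bounds of genes at or under 3 counts in every LLC alone library, black bars the median of each list and the dotted line the median of all tested genes. Medians run from -0.23 for the receptors and adaptors to 2.46 for the other receptors, a single gene. That gene, Tlr13, passed the filter on low counts only through LLC with BMSCs.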

How the data were processed

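RNA of sorted RFP-positive LLC cells was measured in 6 libraries, 3 per group, grouped by the sample titles. The authors deposited, per gene and transcript, estimated counts, without normalization and in part fractional, and FPKM values, per transcript length and library total. Per the labels' processing notes, HISAT, StringTie, Cufflinks, GATK and the build mm8 were named, without roles. Estimated counts were rounded and tested with edgeR 4.0.16 in R 4.3.3 (TMM, default filter on low counts, quasi-likelihood test, Benjamini-Hochberg adjustment over all tested genes). The SE is the size of the log2 fold change over the root of the F statistic. For normalized counts, CPM were multiplied by the mean effective library size. A gene at or under 3 counts in every library of a group was given a bound against 3 counts. FPKM were compared with the two-sided exact permutation test.

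The genes, pathway lists and markers were chosen with earlier results of these data known. From each pathway list were named up to 4 tested genes with the largest absolute log2 fold change among those called, with non-overlapping groups and 50 or more normalized counts on average, and the gene of highest FPKM. Alternatives were DESeq2 1.42.0, other scalings and filters, limma 3.58.1 on log2 FPKM, a replicate block, removal of the length trend, summed close pairs, each library left out and a stricter threshold. GENCODE M21 and RefSeq are on GRCm38, not the labels' build, and served only for sequences and overlaps.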

Additional observations from a re-analysis of the deposited data

How the results depend on the processing

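Of the 7 tested genes, Tlr2, Tlr3, Tlr4 and Ticam1 kept their direction and their call in 16 of 16 alternatives, with log2 fold changes of 0.58 to 0.89, 0.45 to 1.04, -1.11 to -0.66 and -0.61 to -0.45. The lowest values of Tlr2 and Tlr3 came from log2(FPKM + 1), where the pseudocount shrinks changes of weakly expressed genes. Myd88 lost its call in 1 of 16, when the close replicate pairs were summed, which leaves fewer samples (-0.25, adjusted p = 0.0822 with edgeR), and ranged from -0.26 to -0.12. Tlr9 gained a call in 1 of 14, without LLC alone replicate 3, and Tlr7 in 0 of 14 (adjusted p 0.0775 to 0.363). No tested gene changed direction in these alternatives.

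With the threshold set at an adjusted p of 0.001 and a log2 fold change of 1 or more in size, 0 of the receptors and adaptors were called higher and 0 lower with edgeR, against 2 and 3 at the main threshold. Pathway genes then numbered 33 higher and 3 lower against 52 and 12, and all genes 910 higher and 723 lower against 4210 and 4183. In the other 16 alternatives each of these counts stayed within 1.5 times of its main value. With each library left out in turn, 2 to 3 of the 10 were called higher and 3 to 4 lower, 51 to 57 pathway genes higher and 9 to 13 lower, and 3617 to 4736 of all genes higher and 3581 to 4539 lower. With the replicate number as a block, 2 of the 10 were higher and 3 lower, as without it, with 53 and 11 pathway genes and 4161 and 4058 genes in all. Same-numbered replicates did not deviate together (correlations 0.08, -0.11 and 0.06), so the numbers were not taken to pair the libraries. The depth, at which 3 counts are 0.065 to 0.090 CPM of the unadjusted library total, limits statements on Tlr1, Tlr5, Tlr6 and Tlr7.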

Other observations

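The deposited transcript values divided Tlr2 and Tlr4 between their RefSeq transcript and a transcript that the authors' pipeline assembled. These are estimates by the authors and were not tested. The RefSeq transcript of Tlr2, NM_011905, had 0.40, 0.51 and 1.13 FPKM in LLC alone and 2.03, 2.24 and 2.14 FPKM in LLC with BMSCs. The assembled transcript had 1.13, 0.87 and 0.25 FPKM and then 0.55, 0.58 and 0.35 FPKM. The rise of Tlr2 in the gene values thus stood in its RefSeq transcript, and within LLC alone replicate 3 differed from the other 2 in which transcript took most of the gene. The RefSeq transcript of Tlr4, NM_021297, had 6.33, 6.68 and 4.41 FPKM in LLC alone and 3.30, 3.20 and 3.61 FPKM in LLC with BMSCs. Its assembled transcript had 1.29, 1.27 and 1.76 FPKM against 0.76, 1.02 and 0.65 FPKM, so both were lower in every library with BMSCs.

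Tlr1 was assigned to different RefSeq transcripts in different libraries, with its 8.38 and 5 counts of LLC with BMSCs replicates 1 and 2 in NM_001276445 and the 13 of replicate 3 in NM_030682. Tlr3, Tlr5, Tlr6, Tlr9, Myd88 and Ticam1 had 1 transcript each in the files.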
